A study of Homo sapiens with 8 samples.

Results

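The transcripts described here are those of 8 receptor tyrosine kinases and 2 adaptors: EGFR, ERBB2 and ERBB3 of the ERBB family, MET, AXL, IGF1R, INSR and FGFR3, and the insulin receptor substrates IRS1 and IRS2. They were taken by name as receptors that can carry growth signals beside mutant EGFR, with the adaptors of the insulin-type receptors. The choice was made with earlier results of these data known. All 10 were measured among the 19775 genes on the arrays. Each gene is given by the probe set that maps to its symbol alone and has the highest mean over the 8 arrays, and the gene's other probe sets serve as a check.

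The cells were NCI-H1975, an established human lung adenocarcinoma line that carries an activating and a resistance mutation in EGFR. Total RNA was profiled on Affymetrix U133 Plus 2.0 arrays after 24 h of treatment, with 1 array for each of 8 conditions. The drug treatments were DMSO (vehicle), osimertinib at 10 nM, alpelisib at 1 µM, and osimertinib with alpelisib at the same doses (the combination). Each of these was applied alone and together with 2 mM L-histidinol, and all conditions shared the same line and the same serum-containing medium. Osimertinib blocks mutant EGFR covalently, alpelisib blocks the alpha catalytic subunit of PI3K, and L-histidinol hinders the charging of histidine to its tRNA and so mimics a lack of histidine. One line under 1 dose of each drug limits these conditions as a model.

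Receptor tyrosine kinases bind growth factors outside the cell and signal inward through the RAS-ERK cascade and through PI3K and AKT. ERBB2 has no known ligand of its own and pairs with the other ERBB receptors, and ERBB3 has weak kinase activity and recruits PI3K directly. In lung tumours treated with EGFR inhibitors, ERBB2, ERBB3, MET, AXL, IGF1R and FGFR3 are known as receptors through which signalling can continue, and FOXO factors, which AKT holds out of the nucleus, are known activators of ERBB3, INSR and IRS2 transcription.

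All values are log2 intensity, and differences are fitted log2 differences ± standard error from limma over all genes, called at a Benjamini-Hochberg adjusted p below 0.05. The fit adds an L-histidinol effect to a drug effect, so each drug was compared over 2 arrays against 2 and L-histidinol over 4 pairs. No condition was repeated: each p tests a fitted difference against 0, with an error taken from how far these 8 arrays depart from additive effects. The number of arrays limits the precision. Overlap of drug groups with vehicle is given as a description, and the share of all genes without overlap was not counted. Median intensity per array lay between 21.8 and 22.4. All 10 markers of lung epithelium had a mean log2 intensity of at least 5 (7.87 to 13.06), against 5 of 12 markers of other cell types (2.17 to 5.79), with PTPRC at 2.82 and CDH5 at 2.71. The summed intensity of the latter was 280 to 348 per array, against 25557 to 38244 for the epithelial markers. The ERK target DUSP6 changed by -3.99 ± 0.18 with osimertinib (adjusted p = 1.8e-07) and by 0.21 ± 0.18 with alpelisib (adjusted p = 0.559). The FOXO target CCNG2 rose by 1.61 ± 0.08 and 1.14 ± 0.08 with the same drugs (adjusted p = 3.8e-07 and 5.4e-05), and the stress gene ASNS by 2.02 ± 0.12 with L-histidinol (adjusted p = 3.0e-06).

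Promoter sequence was read for the members in the RefSeq promoter table (build GRCh38.p14), which held 9 of the 10. It had no entry for ERBB3, whose promoter was therefore not searched. Windows of 250 bases before to 50 bases after the start were searched on both strands for GTAAACA (a FOXO site), TGANTCA (AP-1) and CCGGAA (ETS). The FOXO letters were in 0 of the 9 member windows and in 3.41% of all 27305 promoters, the AP-1 letters in 1 member window and 7.76% of all, and the ETS letters in 2 member windows and 17.6% of all. Among the 15384 promoters of genes on the arrays, 2.62%, 5.84% and 23.1% held them. The bases before the start are printed for 3 members whose transcripts rose with each drug and for 2 that fell with osimertinib, 5′ to 3′ on the gene's strand, with matches in capitals.
ERBB2, chr17:39687844-39688093, plus strand: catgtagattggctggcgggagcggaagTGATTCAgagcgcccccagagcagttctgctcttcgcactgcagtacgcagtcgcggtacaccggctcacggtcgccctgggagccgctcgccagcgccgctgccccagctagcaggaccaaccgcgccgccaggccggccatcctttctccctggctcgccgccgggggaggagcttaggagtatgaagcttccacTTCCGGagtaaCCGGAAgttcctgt
INSR, chr19:7294415-7294664, minus strand: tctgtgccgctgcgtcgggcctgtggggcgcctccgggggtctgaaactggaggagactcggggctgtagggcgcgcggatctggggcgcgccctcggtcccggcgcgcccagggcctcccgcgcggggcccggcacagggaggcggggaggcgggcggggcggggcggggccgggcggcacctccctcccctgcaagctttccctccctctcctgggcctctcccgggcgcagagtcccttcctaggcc
IRS2, chr13:109786584-109786833, minus strand: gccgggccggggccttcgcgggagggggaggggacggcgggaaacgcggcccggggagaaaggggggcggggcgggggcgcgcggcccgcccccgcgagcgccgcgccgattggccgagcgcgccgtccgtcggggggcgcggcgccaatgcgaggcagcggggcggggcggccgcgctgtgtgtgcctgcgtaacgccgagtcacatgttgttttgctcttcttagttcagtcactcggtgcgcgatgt
EGFR, chr7:55018767-55019016, plus strand: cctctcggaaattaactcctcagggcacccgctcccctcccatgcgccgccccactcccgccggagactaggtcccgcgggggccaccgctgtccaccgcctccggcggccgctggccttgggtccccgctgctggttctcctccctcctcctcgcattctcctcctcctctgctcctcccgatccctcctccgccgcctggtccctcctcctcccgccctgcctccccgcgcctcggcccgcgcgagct
IRS1, chr2:226799821-226800070, minus strand: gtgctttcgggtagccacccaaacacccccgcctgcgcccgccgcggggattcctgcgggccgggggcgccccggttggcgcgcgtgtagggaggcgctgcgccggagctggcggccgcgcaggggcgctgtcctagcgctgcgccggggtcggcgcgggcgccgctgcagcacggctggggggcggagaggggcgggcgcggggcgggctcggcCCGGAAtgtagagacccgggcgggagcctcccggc
The ERBB2 window held an AP-1 match whose first base lies 222 bases before the start used. It also held 2 ETS matches in opposite orientation that begin 25 and 14 bases before that start, with no overlap between them. Only 1 start per gene was read, and other starts of ERBB2 or of the other members were not searched. Whether the ERBB2 window overlaps with the neighbouring gene PGAP3 was not examined. IRS1 held 1 ETS match, 35 bases before the start. A match is a run of letters and was not measured as a bound site in these cells.

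Osimertinib against vehicle asked how the receptors responded to the EGFR inhibitor. Of the 10 transcripts 5 rose and 3 fell, beside 16.4% and 14.0% of all genes (30.4% in either direction). ERBB2, ERBB3, INSR, FGFR3 and IRS2 rose, led by ERBB3 at 2.25-fold and FGFR3 at 2.10-fold, while EGFR itself, AXL and IRS1 fell. Alpelisib raised ERBB2, ERBB3, INSR, FGFR3 and IRS2 and lowered 0, beside 7.08% higher and 4.38% lower among all genes (11.5% in either direction). The combination raised 6 (ERBB2, ERBB3, IGF1R, INSR, FGFR3 and IRS2) and lowered 3 (EGFR, AXL and IRS1), beside 21.4% and 19.2% of all genes (40.6% in either direction). The median change of the 10 was 0.23 with osimertinib, 0.42 with alpelisib and 0.80 with the combination, where the median of all genes was 0.013, -0.0017 and -0.0010. These 3 comparisons share the vehicle arrays, and the 10 were chosen with earlier results of these data known. With each array centred on its median, the median of all genes moved by -0.11 with osimertinib, -0.08 with alpelisib and -0.13 with the combination, and the share of called genes that were higher moved from 54.0% to 35.7%, from 61.8% to 32.3% and from 52.7% to 36.6%. The mean over all probe sets of a gene, dim ones included, gave values smaller in size but still called for several members. With osimertinib these were -0.27 for EGFR, 0.52 for ERBB2, 0.39 for ERBB3, -0.39 for AXL, 0.35 for INSR and 0.45 for FGFR3. With the combination the same members gave -0.22, 0.72, 0.77, -0.39, 0.95 and 0.76, and IRS2 gave 1.68. IRS1 with osimertinib (-0.37) and IGF1R with the combination (0.48) were larger there and called, while IRS2 with osimertinib (0.27, adjusted p = 0.074) and IRS1 with the combination (-0.14, adjusted p = 0.344) were not called.

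**Figure D1:**
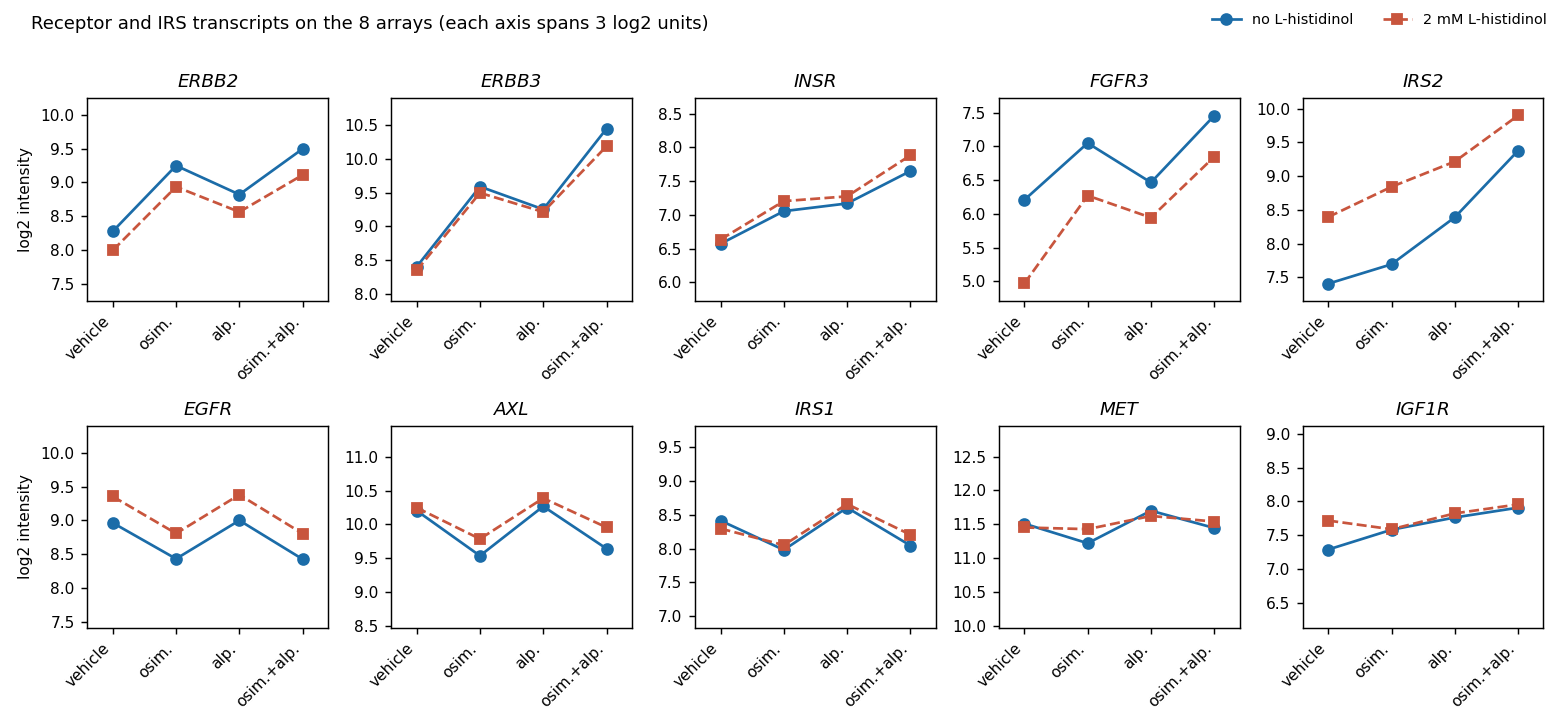
Log2 intensity of each transcript (vertical axis, 3 log2 units in every panel) in vehicle, osimertinib, alpelisib and both drugs (horizontal axis), without L-histidinol (circles) and with 2 mM L-histidinol (squares); each point is 1 array and lines join arrays of the same L-histidinol state. ERBB3 climbs from 8.40 and 8.35 in vehicle to 10.45 and 10.19 with both drugs, while EGFR, AXL and IRS1 dip in the osimertinib and combination arrays.

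**Figure D2:**
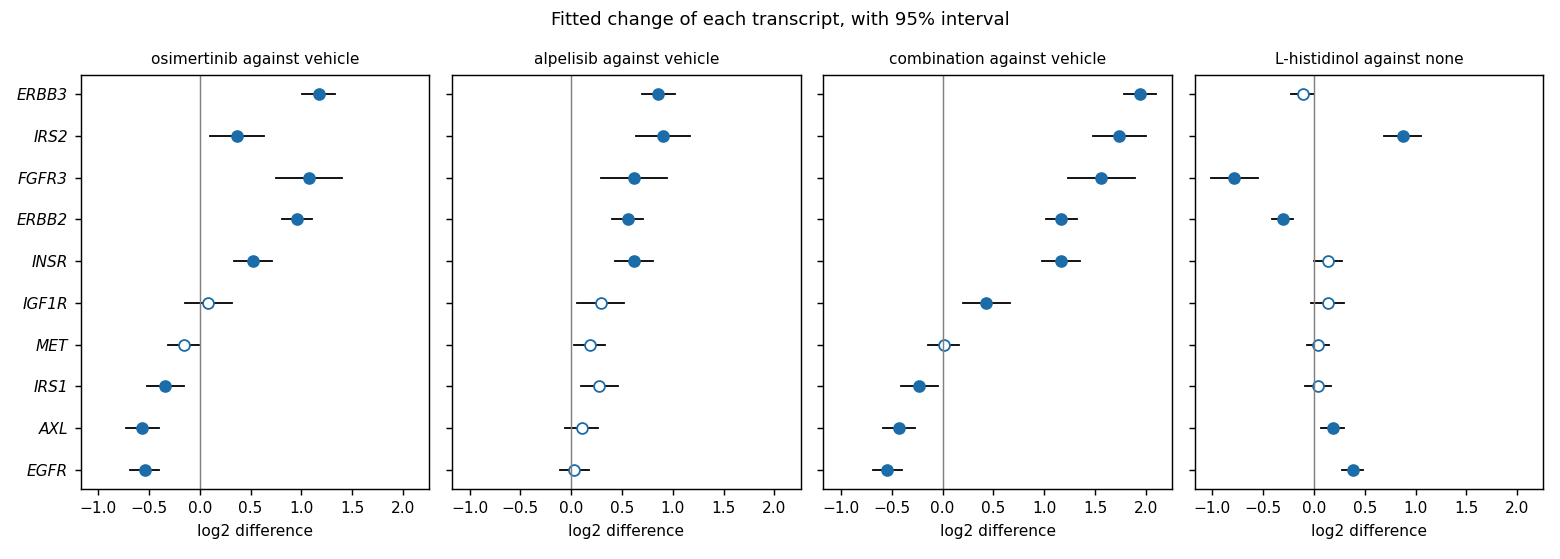
Fitted log2 difference (horizontal axis) of each transcript in 4 comparisons, with its 95% interval as a line; filled circles are called and open circles are not. The combination spans -0.54 for EGFR to 1.94 for ERBB3, and 0 of the transcripts is called lower with alpelisib.

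EGFR, the receptor that osimertinib inhibits, had an intensity of 8.96 in vehicle, 8.43 with osimertinib, 9.00 with alpelisib and 8.42 with the combination. With L-histidinol the same treatments gave 9.35, 8.81, 9.38 and 8.80. The 4 arrays with osimertinib were below all 4 without it. EGFR fell by 0.54 ± 0.07 on the log2 scale with osimertinib (1.45-fold lower, adjusted p = 9.5e-05) and by 0.54 ± 0.07 with the combination (adjusted p = 3.4e-05). Alpelisib gave 0.03 ± 0.07 (adjusted p = 0.849, 95% interval -0.11 to 0.17), with overlapping groups, and the combination differed from osimertinib alone by -0.004 ± 0.07 (95% interval -0.15 to 0.14). The 2 other EGFR probe sets with a mean above 8 changed by -0.51 and -0.40 with osimertinib and by -0.42 and -0.34 with the combination, and were called in both. The probe set with a mean of 6.04 gave -0.19 with osimertinib and 0.01 with the combination, neither called. That with a mean of 5.56 gave -0.35 and -0.33, both called.

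ERBB2, the preferred partner of the other ERBB receptors, stood at 8.27 in vehicle, 9.25 with osimertinib, 8.82 with alpelisib and 9.50 with the combination. With L-histidinol it stood at 7.99, 8.93, 8.56 and 9.11. Within each L-histidinol state the order was vehicle, alpelisib, osimertinib, combination, and no drug group overlapped with vehicle. The rise was 0.96 ± 0.07 with osimertinib (1.94-fold, adjusted p = 3.2e-06), 0.56 ± 0.07 with alpelisib (1.47-fold, adjusted p = 8.1e-04) and 1.17 ± 0.07 with the combination (2.25-fold, adjusted p = 2.2e-07). Osimertinib exceeded alpelisib by 0.40 ± 0.07 (adjusted p = 0.0040), while the step from osimertinib to the combination, 0.21 ± 0.07, was not called (adjusted p = 0.0673, 95% interval 0.06 to 0.36). Without the alpelisib array with L-histidinol the alpelisib value was 0.52 and not called (adjusted p = 0.050), and over the mean of probe sets it was 0.26 and not called. ERBB2 had no second probe set with a mean of at least 5.

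ERBB3, the receptor that couples neuregulin binding to PI3K, read 8.40 in vehicle, 9.59 with osimertinib, 9.25 with alpelisib and 10.45 with the combination. With L-histidinol it read 8.35, 9.50, 9.22 and 10.19. The 4 drug groups did not overlap, and each step from vehicle through alpelisib and osimertinib to the combination was called, at 0.86 ± 0.07, 0.31 ± 0.07 and 0.77 ± 0.07 (adjusted p = 8.6e-05, 0.0188 and 2.4e-04). The whole rise to the combination was 1.94 ± 0.07, or 3.85-fold (adjusted p = 1.4e-08). The combination lay close to the sum of the single drugs, with a departure of -0.08 ± 0.10 (95% interval -0.31 to 0.14). A second probe set gave 1.21, 0.83 and 1.87 for osimertinib, alpelisib and the combination, each called. Another, with a mean of 5.83, gave 0.19 with osimertinib and 0.13 with alpelisib, neither called (adjusted p = 0.243 and 0.541). With the combination that probe set gave 0.63, which was called. Over the mean of probe sets alpelisib gave 0.33. The step from alpelisib to osimertinib was lost when any 1 of the arrays of those drugs was left out (0.26 to 0.36, adjusted p = 0.0962 to 0.3), and over the mean of probe sets it was 0.06 and not called (adjusted p = 0.7).

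MET, the receptor for hepatocyte growth factor, had 11.51 in vehicle, 11.22 with osimertinib, 11.70 with alpelisib and 11.44 with the combination. The arrays with L-histidinol gave 11.45, 11.43, 11.62 and 11.54. The arrays of each single drug did not overlap with vehicle, while those of the combination did. No difference from vehicle was called. The intervals run from -0.31 to -0.0049 for osimertinib, 0.03 to 0.33 for alpelisib and -0.14 to 0.16 for the combination. MET was lower with osimertinib than with alpelisib by 0.34 ± 0.07 (adjusted p = 0.0101), and this call was lost without the osimertinib array (-0.23) or the alpelisib array (-0.26), both without L-histidinol. The change with osimertinib was called after centring each array on its median (-0.26, adjusted p = 0.0111) and without the array of osimertinib with L-histidinol (-0.27, adjusted p = 0.0406). Under quantile normalization the change with alpelisib was 0.22 and called (adjusted p = 0.0488).

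AXL, a receptor for GAS6 and protein S that is often abundant in mesenchymal-like lung lines, had 10.20 in vehicle, 9.54 with osimertinib, 10.27 with alpelisib and 9.64 with the combination. With L-histidinol the values were 10.25, 9.79, 10.39 and 9.96. All 4 arrays with osimertinib were below all 4 without it, as for EGFR. AXL fell by 0.57 ± 0.07 with osimertinib (1.48-fold lower, adjusted p = 1.4e-04) and by 0.43 ± 0.07 with the combination (adjusted p = 5.0e-04). Alpelisib gave 0.10 ± 0.07 (adjusted p = 0.454). The other AXL probe set changed by -0.21 with osimertinib, which was not called, and by -0.35 with the combination, which was.

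IGF1R, the receptor for the insulin-like growth factors, had 7.29 in vehicle, 7.58 with osimertinib, 7.76 with alpelisib and 7.91 with the combination. With L-histidinol it had 7.72, 7.59, 7.82 and 7.96. The combination raised IGF1R by 0.43 ± 0.10 (1.35-fold, adjusted p = 0.0057), and the single drugs gave 0.08 ± 0.10 and 0.29 ± 0.10 (adjusted p = 0.643 and 0.104). The vehicle array without L-histidinol was the lowest of the 8, and without it the combination value was 0.23 and not called (adjusted p = 0.0742). Without the vehicle array with L-histidinol, osimertinib (0.28, adjusted p = 0.047) and alpelisib (0.49, adjusted p = 0.0102) were called. Of the other IGF1R probe sets with a mean of at least 5, 1 rose by 0.48, 0.44 and 0.97 with osimertinib, alpelisib and the combination, all called, and another rose by 0.32 with osimertinib and 0.86 with the combination.

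INSR, the insulin receptor, had 6.57 in vehicle, 7.05 with osimertinib, 7.17 with alpelisib and 7.65 with the combination. With L-histidinol it had 6.63, 7.20, 7.27 and 7.88. No drug group overlapped with vehicle, and the combination arrays were the highest. INSR rose by 0.53 ± 0.09 with osimertinib (adjusted p = 6.8e-04), by 0.62 ± 0.09 with alpelisib (adjusted p = 0.0015) and by 1.16 ± 0.09 with the combination (2.24-fold, adjusted p = 9.3e-07). The difference between osimertinib and alpelisib was not called (-0.09 ± 0.09, adjusted p = 0.594, 95% interval -0.28 to 0.10). The combination exceeded each of these drugs (0.64 and 0.54, adjusted p = 0.0013 and 5.8e-04). The alpelisib call was lost without the alpelisib array with L-histidinol (0.64, adjusted p = 0.0512). A second probe set rose by 0.56, 0.60 and 1.07 in the same order, all called. Another, with a mean of 6.27, gave 0.27 with osimertinib and 0.23 with alpelisib, neither called (adjusted p = 0.0582 and 0.157). Without and with L-histidinol it read 5.85 and 5.96 in vehicle, and 6.85 and 6.86 with the combination.

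FGFR3, a fibroblast growth factor receptor that signals mainly to ERK, had 6.21 in vehicle, 7.05 with osimertinib, 6.46 with alpelisib and 7.45 with the combination. With L-histidinol it had 4.97, 6.27, 5.94 and 6.85. The lowest array was vehicle with L-histidinol, and alpelisib overlapped with vehicle while osimertinib and the combination did not. FGFR3 rose by 1.07 ± 0.15 with osimertinib (2.10-fold, adjusted p = 2.3e-04) and by 1.56 ± 0.15 with the combination (2.95-fold, adjusted p = 5.6e-06). The rise with alpelisib, 0.62 ± 0.15 (adjusted p = 0.0218), was not called without either alpelisib array or without the vehicle array with L-histidinol, with values of 0.79, 0.44 and 0.32. Over the mean of probe sets it was 0.15 and not called. No second FGFR3 probe set had a mean of at least 5.

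IRS1, which docks PI3K to the insulin and IGF1 receptors, had 8.42 in vehicle, 7.98 with osimertinib, 8.61 with alpelisib and 8.05 with the combination. With L-histidinol it had 8.30, 8.05, 8.66 and 8.21. The osimertinib and combination arrays lay below vehicle and the alpelisib arrays above it, with no overlap. The alpelisib arrays of MET, AXL and IGF1R, where no change was called, also lay above vehicle without overlap. IRS1 fell by 0.34 ± 0.08 with osimertinib (adjusted p = 0.0082) and by 0.23 ± 0.08 with the combination (adjusted p = 0.0437), and alpelisib gave 0.28 ± 0.08 (adjusted p = 0.0529). Osimertinib and alpelisib differed from each other by -0.62 ± 0.08 (adjusted p = 8.6e-04). The osimertinib call was lost without the vehicle array (-0.23) or either osimertinib array, and the combination call without any 1 of 6 arrays, at -0.12 without vehicle and -0.15 without the combination array. After centring each array on its median the combination gave -0.36, and over the mean of probe sets it gave -0.14 and was not called.

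IRS2, the other substrate of the insulin-type receptors, had 7.41 in vehicle, 7.69 with osimertinib, 8.39 with alpelisib and 9.38 with the combination. With L-histidinol it had 8.39, 8.84, 9.22 and 9.90. Every drug array was above the vehicle array of the same L-histidinol state, although the single-drug groups overlapped with vehicle because L-histidinol itself raised IRS2. Alpelisib raised IRS2 by 0.90 ± 0.12 (1.87-fold, adjusted p = 0.0012) and osimertinib by 0.37 ± 0.12 (1.29-fold, adjusted p = 0.0363), and alpelisib exceeded osimertinib by 0.54 ± 0.12 (adjusted p = 0.0153). The combination raised it by 1.74 ± 0.12 (3.34-fold, adjusted p = 5.8e-07), which was 1.37 ± 0.12 above osimertinib (adjusted p = 1.6e-04). Departure from the sum of the drugs was 0.47 ± 0.17 (95% interval 0.10 to 0.84), not called at an adjusted p of 0.438. The osimertinib value was not called without the vehicle, alpelisib, osimertinib with L-histidinol or alpelisib with L-histidinol array (0.18 to 0.37, adjusted p = 0.0642 to 0.441), and it was 0.55 without the osimertinib array. Over the mean of probe sets the osimertinib value was 0.27 and not called. Nor was it called after centring each array on its median (0.26, adjusted p = 0.126) or with no variance trend (0.37, adjusted p = 0.104). A second IRS2 probe set gave 0.18 with osimertinib, not called, and 0.80 and 1.62 with alpelisib and the combination, both called.

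**Figure D3:**
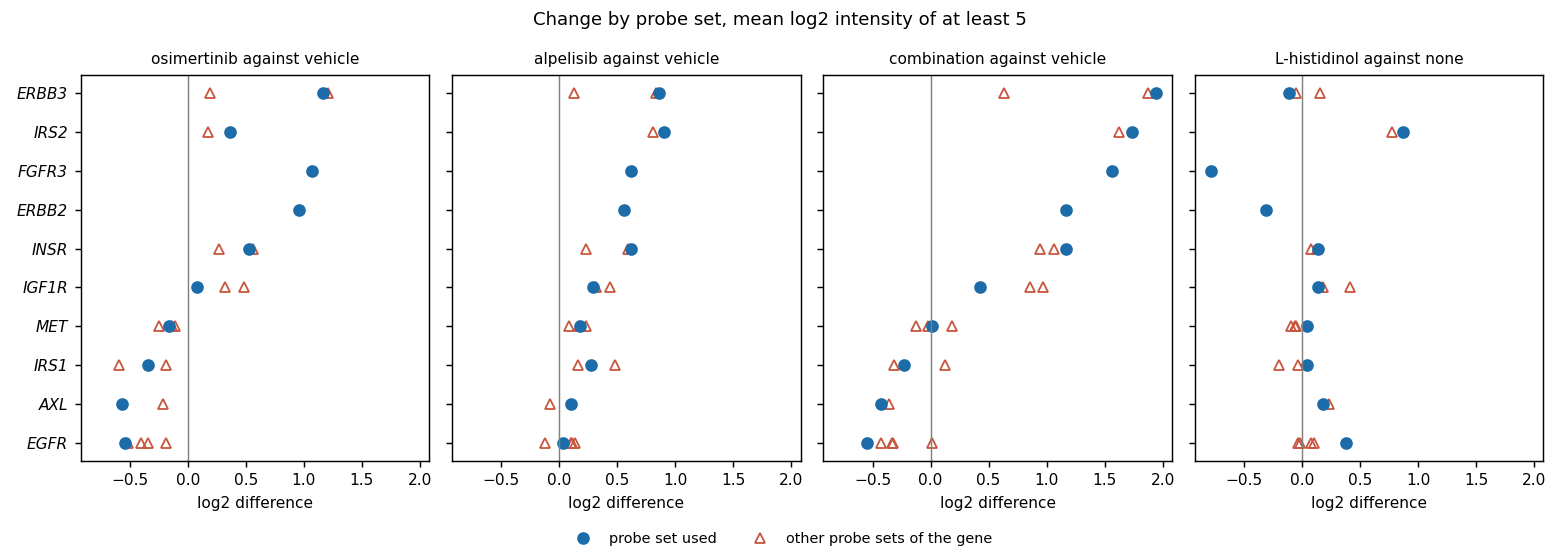
Fitted log2 difference (horizontal axis) of every probe set of a member with a mean log2 intensity of at least 5, with the probe set used as a filled circle and the gene's other probe sets as open triangles. For IRS2 the other probe set lies at 1.62 with the combination, beside 1.74, while for EGFR the other probe sets lie near 0 in the L-histidinol panel, beside 0.38.

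The single drugs were set against each other at these doses to ask which moved a receptor more. Osimertinib gave higher ERBB2 and ERBB3 and lower EGFR, MET, AXL, IRS1 and IRS2 than alpelisib, which is 2 higher and 5 lower beside 5.54% and 5.51% of all genes (11.0% in either direction). AXL differed by -0.67 ± 0.07 (adjusted p = 2.2e-04), by -0.40 over the mean of its probe sets, and by -0.13 on its other probe set, which was not called (adjusted p = 0.48). The ERBB2 call here, 0.40, was lost without the osimertinib array, the alpelisib array or the array of osimertinib with L-histidinol (0.37 to 0.40, adjusted p = 0.0684 to 0.119). The IRS2 call was lost without the osimertinib array, the alpelisib array or the array of alpelisib with L-histidinol (-0.57 to -0.35, adjusted p = 0.107 to 0.236). Against osimertinib alone, the combination raised ERBB3, INSR and IRS2, 3 higher and 0 lower beside 5.96% and 7.41% of all genes (13.4% in either direction). IGF1R (0.35 ± 0.10, adjusted p = 0.0507) and FGFR3 (0.49 ± 0.15, adjusted p = 0.0511) missed the threshold there. Against alpelisib alone, the combination raised ERBB2, ERBB3, INSR, FGFR3 and IRS2 and lowered EGFR, AXL and IRS1, 5 and 3 beside 14.6% and 14.4% of all genes (29.0% in either direction).

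No member departed from the sum of the single drugs by the adjusted p of limma (0 called, beside 0.0303% of all genes called). At an unadjusted p below 0.05 there were 2 members, and the share of all genes at that threshold was not counted. These were ERBB2 at -0.34 ± 0.10 (adjusted p = 0.33) and IRS2 at 0.47. No member's drug response was called as different with L-histidinol, beside 0.00% of all genes called. At an unadjusted p below 0.05 there was 1 member for osimertinib and 2 for alpelisib, again with no share of all genes counted. The first was MET, with a difference of 0.22 ± 0.08 fitted over the pairs without and with alpelisib (adjusted p = 0.523). The others were IRS2 at -0.39 ± 0.13 and FGFR3 at 0.44 ± 0.17 (both at an adjusted p of 0.95). A threshold missed does not show that the responses were alike, and the intervals of these L-histidinol terms for the 10 reach from -0.69 to 0.82.

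**Figure D4:**
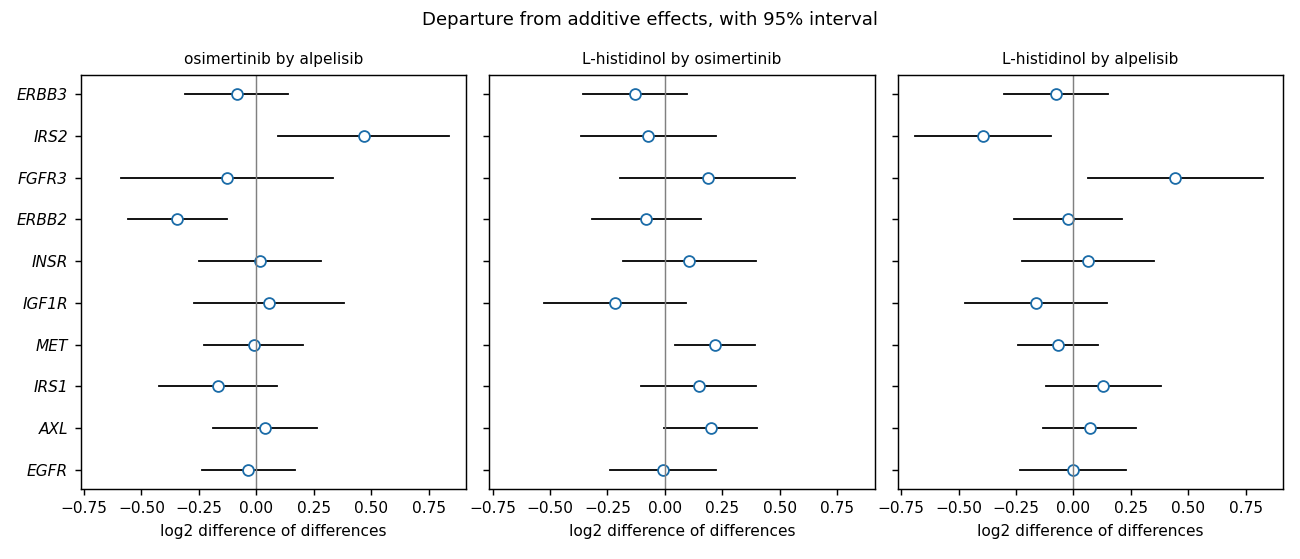
Departure from additive effects (log2 difference of differences, horizontal axis) for each transcript with its 95% interval, for the pair of drugs and for L-histidinol with each drug; open circles are not called. ERBB2 (-0.34) and IRS2 (0.47) lie farthest from 0 in the first panel, and IRS2 (-0.39) and FGFR3 (0.44) in the third.

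L-histidinol against none asked what a lack of usable histidine does to the same transcripts. EGFR, AXL and IRS2 rose and ERBB2 and FGFR3 fell, 3 higher and 2 lower beside 11.4% and 9.17% of all genes (20.6% in either direction). The median of the 10 was 0.09, against -0.01 for all genes. The ratio of the 3′ to the 5′ control probe set of ACTB was 1.04 to 1.07 on the arrays without L-histidinol and 1.10 to 1.15 on those with it, while that of GAPDH was 0.978 to 1.01 and 0.966 to 0.982. The part of this shift in the differences with L-histidinol was not tested.

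IRS2 rose by 0.87 ± 0.08 with L-histidinol (1.83-fold, adjusted p = 7.8e-05), by 0.99 in vehicle, 1.15 with osimertinib, 0.83 with alpelisib and 0.52 with the combination, and its second probe set rose by 0.78. FGFR3 fell by 0.79 ± 0.10 on the log2 scale (1.72-fold lower, adjusted p = 4.8e-04), by 1.24 in vehicle and by 0.52 to 0.78 under the drugs. ERBB2 fell by 0.31 ± 0.05 (adjusted p = 0.0012) and was lower in each of the 4 pairs, and the mean over its probe sets gave -0.19, also called. Each of these kept its sign in all 4 pairs, as did EGFR, AXL, IGF1R, INSR and ERBB3, while MET and IRS1 did not. The share of all genes that keep their sign was not counted.

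EGFR rose by 0.38 ± 0.05 (adjusted p = 2.9e-04) and by 0.38 to 0.39 in each pair on the probe set used, but the 2 other probe sets with a mean above 8 gave 0.07 and 0.10, neither called, and the mean over its probe sets gave -0.003. So 1 of these 3 probe sets carried the EGFR call with L-histidinol. AXL rose by 0.18 ± 0.05 (adjusted p = 0.0271), and this call was lost when any 1 of 6 arrays was left out, all but the vehicle arrays (0.14 to 0.20, adjusted p = 0.0785 to 0.154). ERBB3 gave -0.11 ± 0.05 (adjusted p = 0.16), MET 0.04 ± 0.05 (0.623), INSR 0.14 ± 0.06 (0.144), IGF1R 0.14 ± 0.07 (0.243) and IRS1 0.04 ± 0.06 (0.694), with adjusted p in parentheses. The IGF1R pairs were uneven, at 0.43 in vehicle and 0.01 to 0.06 under the drugs, and another IGF1R probe set rose by 0.41 ± 0.07 (adjusted p = 0.0013).

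The ligands of these receptors were counted beside them, with 17 of 20 listed genes measured. With osimertinib 2 rose and 3 fell, with alpelisib 2 and 1, with the combination 5 and 3 and with L-histidinol 1 and 2. As shares of the 17 these are 11.8% and 17.6%, 11.8% and 5.88%, 29.4% and 17.6%, and 5.88% and 11.8%. The shares of all genes were 16.4% higher and 14.0% lower, 7.08% and 4.38%, 21.4% and 19.2%, and 11.4% and 9.17% in the same order. The ligands' median change was 0.05, 0.04, -0.08 and -0.05 in that order. TGFA, a ligand of EGFR, fell by 1.80 on the log2 scale with osimertinib, by 0.36 with alpelisib and by 1.54 with the combination. NRG1, a ligand of ERBB3, fell by 1.02 with osimertinib and by 1.63 with the combination, in the arrays where ERBB3 was highest. PROS1 and GAS6, ligands of AXL and its relatives, rose with all 3 drug treatments, PROS1 by 1.01, 0.65 and 1.40 and GAS6 by 0.35, 0.30 and 0.66.

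Of 32 other receptor tyrosine kinases 29 were measured, 14 of them with a mean of at least 5. With osimertinib 3 rose and 3 fell, with alpelisib 0 and 1, with the combination 4 and 6 and with L-histidinol 0 and 6, with medians of -0.05, -0.01, -0.21 and -0.05. Those that rose were 10.3%, 0%, 13.8% and 0% of the 29, beside 16.4%, 7.08%, 21.4% and 11.4% of all genes, and those that fell 10.3%, 3.45%, 20.7% and 20.7%, beside 14.0%, 4.38%, 19.2% and 9.17%. EPHA2, an ephrin receptor, fell by 1.25 with osimertinib and by 1.31 with the combination. FGFR4 fell by 0.46, 0.47 and 0.96 with osimertinib, alpelisib and the combination, where its relative FGFR3 rose in each. Of AXL's relatives, MERTK rose by 0.60 and TYRO3 fell by 0.28 with the combination. The receptor ROR1 fell by 0.51 with L-histidinol.

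Adaptors other than the IRS proteins (20 of 23 measured) rose in 4 and fell in 3 cases with osimertinib, 4 and 1 with alpelisib, 8 and 4 with the combination, and 3 and 3 with L-histidinol, with medians of 0.05, 0.02, 0.13 and -0.06. The shares that rose were 20.0%, 20.0%, 40.0% and 15.0%, where 16.4%, 7.08%, 21.4% and 11.4% of all genes did. The shares that fell were 15.0%, 5%, 20.0% and 15.0%, where 14.0%, 4.38%, 19.2% and 9.17% of all genes did. GRB7, which binds ERBB2 and whose gene lies near that of ERBB2 with MIEN1 between them, rose with the drugs. Its values were 0.48, 0.96 and 1.58 with osimertinib, alpelisib and the combination. The docking protein GAB1 rose by 0.62, 0.42 and 0.85, and the RAS exchange factor SOS2 by 0.69, 0.29 and 0.92. SHC3 fell by 1.02 with osimertinib and by 1.40 with the combination.

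Brakes on receptor signalling (23 of 24 measured) rose in 2 and fell in 4 cases with osimertinib, 1 and 1 with alpelisib, 5 and 7 with the combination, and 10 and 0 with L-histidinol, with medians of -0.13, -0.01, 0.03 and 0.18. Set against all genes, 8.70%, 4.35%, 21.7% and 43.5% of the brakes rose beside 16.4%, 7.08%, 21.4% and 11.4%, and 17.4%, 4.35%, 30.4% and 0% fell beside 14.0%, 4.38%, 19.2% and 9.17%. CBLB, a ubiquitin ligase that marks receptors for removal, rose by 1.23, 0.76 and 1.75 with osimertinib, alpelisib and the combination. SPRED1, an inhibitor of RAS signalling, fell by 1.01 with osimertinib and by 1.16 with the combination, and GRB14, which inhibits the insulin receptor, fell by 0.64, 0.51 and 1.08 with the 3 drug treatments. With L-histidinol TRIB3 rose by 1.12, SOCS2 by 0.54, ERRFI1, an inhibitor of EGFR, by 0.47, and RNF41, a ubiquitin ligase that acts on ERBB3, by 0.47.

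In the PI3K, AKT and FOXO chain 23 of 25 genes were measured, and 5 rose and 2 fell with osimertinib, 3 and 0 with alpelisib, 10 and 6 with the combination and 3 and 3 with L-histidinol, with medians of 0.03, 0.05, 0.17 and -0.04. That is 21.7%, 13.0%, 43.5% and 13.0% higher, beside 16.4%, 7.08%, 21.4% and 11.4% of all genes, and 8.70%, 0%, 26.1% and 13.0% lower, beside 14.0%, 4.38%, 19.2% and 9.17%. IGFBP3, which binds the ligands of IGF1R, rose by 1.07 with osimertinib and 0.54 with the combination. INPP4B, a phosphatase of PI3K products, rose by 0.77 with alpelisib and 0.63 with the combination, and PIK3R3, a regulatory subunit, by 0.85 with osimertinib and 0.58 with the combination. All 11 genes of receptor shedding and trafficking were measured, of which 5, 2, 5 and 4 rose with osimertinib, alpelisib, the combination and L-histidinol and 0 fell. The shares that rose, 45.5%, 18.2%, 45.5% and 36.4%, stand beside the same shares of all genes (16.4%, 7.08%, 21.4% and 11.4%). Their medians were 0.16, 0.07, 0.21 and -0.0037. ADAM10 and ADAM17 cut ERBB ligands and receptors from the cell surface. ADAM10 rose by 0.40, 0.29 and 0.53 with the 3 drug treatments, and ADAM17 by 0.33 with osimertinib, 0.37 with the combination and 0.36 with L-histidinol.

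As a description, the 2 genes most like each member over the 8 arrays were taken among 3244 genes with a mean of at least 5 and a standard deviation of at least 0.3. The points share the same arrays and treatments. For ERBB2 they were CRIP2 (r = 0.998) and TOM1L2 (0.996), for ERBB3 RNF103 (0.998) and SASH1 (0.997), for EGFR MCTP1 (0.990) and MICAL2 (0.988), and for AXL DUSP5 (0.988) and ADAMTS6 (0.978). INSR was most like FOXN3 (0.989) and UBN2 (0.984), FGFR3 like SCRN2 (0.991) and FAM114A1 (0.990), and IRS2 like CEMIP (0.981) and PPP1R9A (0.977). MET (TMC5, 0.878), IGF1R (THSD4, 0.945) and IRS1 (HMGA2, 0.945) varied by less than 0.3 themselves. Among the members, ERBB2 and ERBB3 ran together at r = 0.942, ERBB2 and FGFR3 at 0.935 and ERBB3 and INSR at 0.933. AXL ran with IRS1 at 0.932 and with EGFR at 0.927. EGFR and FGFR3 ran opposite at -0.889, all over 8 arrays.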

How the data were processed

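The authors deposited 1 table of linear signal intensity per probe set for the 8 arrays. Per the submitters' processing notes they used RMA and affy, whose versions the sources used here do not give. The design had assumed log2 of linear intensity, and log2 was taken with no further scaling. Of 54675 probe sets 62 were controls, 41091 had exactly one gene symbol, 1801 had more and 11721 had none. The first of these symbol classes was kept, and 41037 of its probe sets matched the RefSeq gene table by Entrez identifier. Each of 19775 genes was read from the probe set with its highest mean, and for 9252 genes there was no choice.

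The model in limma 3.58.1 (R 4.3.3, statmod 1.5.0) had an L-histidinol term and a drug term, a variance trend on mean intensity, 3 residual and 8.08 prior degrees of freedom, and Benjamini-Hochberg adjustment across all genes. Interactions with L-histidinol used all 2-way terms, which leave 1 residual degree of freedom, with the prior held at the additive model's. There were 10 contrasts. Alternatives were the mean of probe sets, no probe sets marked for cross-hybridization, median centring, quantile normalization, log2 of intensity plus 16, a mean log2 of at least 5, no variance trend, no L-histidinol term, all 2-way terms and each array left out.

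The members and lists were chosen with earlier results of these data known. Named were all 10 members, of each list up to 4 called genes per comparison (with values in other comparisons for some), and up to 2 genes of like pattern per member. The listed genes named were not in every case those with the largest changes. The ligand EREG, for example, was not described, at 8.31 in vehicle and 6.82 with osimertinib, both without L-histidinol. The members had 40 probe sets, 13 of them dim (mean log2 below 5). The scripts were tested on simulated data. Versions for tables and drawings were Python 3.11.15, numpy 2.4.6, pandas 2.3.3 and matplotlib 3.10.9.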

Additional observations from a re-analysis of the deposited data

How the results depend on the processing

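Of the 45 called differences of members, 18 were called in every alternative run, 32 in every one but the fit with no L-histidinol term, and 44 kept their sign; EGFR with L-histidinol turned to -0.0029 over the mean of its probe sets. Dropping probe sets marked for cross-hybridization, which 6 of the 10 used probe sets are, left ERBB2, AXL, FGFR3 and IRS2 with no probe set, so its counts cover the 6 other members and, of the calls with L-histidinol, EGFR alone was tested again (0.10, adjusted p = 0.251). Members called higher and lower were then 0 and 0 for L-histidinol, higher 2 for osimertinib, 2 for alpelisib, 3 for the combination and 2 for the combination against alpelisib, and 1 higher and 3 lower for osimertinib against alpelisib. With no L-histidinol term members called higher and lower were 3 and 1 for osimertinib, higher 1 for alpelisib, lower 1 for the combination, higher 0 and 2 for the combination against osimertinib and alpelisib, and 0 and 0 for osimertinib against alpelisib. Genes called in that fit were 2466, 42, 5269, 23, 2196 and 150 in the same order, beside 6011, 2267, 8033, 2643, 5735 and 2185. The mean of probe sets gave 3 members higher with alpelisib and 0 for osimertinib against alpelisib, and 1222 genes for alpelisib and 1646 for the combination against osimertinib. No variance trend gave 779, 1017 and 1042 genes for alpelisib, the combination against osimertinib and osimertinib against alpelisib, with 1 member higher and 3 lower in the last. For the combination against osimertinib, members called higher were 5 under quantile normalization, 6 with a mean log2 of at least 5 and 5 with all 2-way terms. The 6 genes that departed from the sum of the drugs became 13 without marked probe sets and 0 with the mean of probe sets, no trend or no L-histidinol term. Fewer arrays gave 2160 to 4056 genes for L-histidinol, 3755 to 6375 for osimertinib, 175 to 3009 for alpelisib, 6660 to 7694 for the combination, 508 to 3271 and 2968 to 6282 for the combination against osimertinib and alpelisib, 452 to 2751 for osimertinib against alpelisib, and 0 to 68 for the departure. Members called higher were then 2 to 3 for L-histidinol, 4 to 6 for osimertinib, 2 to 6 for alpelisib, 5 to 6 for the combination, 3 to 6 for the combination against osimertinib and 0 to 3 for osimertinib against alpelisib, and those called lower 2 to 3 for osimertinib, 2 to 3 for the combination and 3 to 5 for osimertinib against alpelisib. Apart from arrays left out and from dropped probe sets, the cause of these moves was not tested. Leaving out an array was not run for the interactions of L-histidinol with a drug, which then have no residual degrees of freedom. The L-histidinol and drug terms already match the arrays, and no replicate block could be added because the labels give no replicate numbers. The number of arrays limits every value, and FGFR3 fell to 4.97 on 1 array, under the log2 of 5 used here as dim.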

Other observations

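Genes next to the members on their chromosomes were read from the RefSeq gene table as the 2 protein-coding neighbours on each side, of which 32 were measured. With osimertinib 7 of them were higher and 4 lower, with alpelisib 4 and 1, with the combination 8 and 6 and with L-histidinol 3 and 6. The shares that were higher are 21.9%, 12.5%, 25% and 9.38%, beside 16.4%, 7.08%, 21.4% and 11.4% of all genes, and the shares that were lower 12.5%, 3.12%, 18.8% and 18.8%, beside 14.0%, 4.38%, 19.2% and 9.17%. Near ERBB2 on chromosome 17, GRB7 (0.48 ± 0.10, 0.96 ± 0.10 and 1.58 ± 0.10 with osimertinib, alpelisib and the combination) and PGAP3 (0.51 ± 0.10, 0.27 ± 0.10 and 0.81 ± 0.10) had values above 0 as ERBB2 did. The alpelisib value of PGAP3 was not called. MIEN1, directly beyond ERBB2, rose by 0.25 ± 0.07 with the combination and was not called with either drug alone. With L-histidinol, where ERBB2 fell, GRB7 gave -0.02 ± 0.07 and was not called.

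Beside ERBB3, PA2G4, which encodes a protein that binds ERBB3, fell by 0.79 ± 0.07, 0.41 ± 0.07 and 1.25 ± 0.07 on the log2 scale with osimertinib, alpelisib and the combination (adjusted p = 1.6e-05, 0.0054 and 2.0e-07), where ERBB3 rose. Around FGFR3, LETM1 fell by 0.44 ± 0.08 and 0.83 ± 0.08 with osimertinib and the combination, NSD2 by 0.58 ± 0.07 and 0.74 ± 0.07 and TACC3 by 0.41 ± 0.11 and 0.46 ± 0.11, while TMEM129 rose by 0.31 ± 0.08 and 0.51 ± 0.08. CAV1, beside MET, rose by 0.35 ± 0.06, 0.26 ± 0.06 and 0.44 ± 0.06 with the drug treatments and fell by 0.24 ± 0.04 with L-histidinol, where MET was not called. These neighbours were named after their values were seen.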
